A study of Mus musculus with 7 samples.

Results

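Cdh5, Kdr, Dll4 and Lyve1, genes of blood and lymphatic endothelium, were followed across arrays of mouse paracardial and intra-abdominal fat. They were chosen by name, with earlier results of these data known. Each was read from the highest-mean probe that carries exactly 1 gene symbol, and they are 4 of 9294 genes measured in this way. Each had 1 such probe. The samples were total RNA of fat from wild-type male C57 mice, hybridised to Affymetrix arrays. Paracardial fat, the depot beside the heart, gave 4 arrays and intra-abdominal fat gave 3, and the labels name no treatment, diet or age. The titles number the samples of a depot as biological replicates but name no animals, and p-values here reflect only how far these samples differ among themselves. Values are on the deposited log2 scale, and a difference is paracardial minus intra-abdominal.

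Blood vessels reach every fat lobule, and their endothelial cells deliver fatty acids and respond to growth factors released by adipocytes. Cdh5 encodes VE-cadherin, the adhesion molecule of endothelial adherens junctions, and Kdr encodes VEGFR2, the main signalling receptor for VEGF-A. Dll4 encodes a Notch ligand that, in vessels, is made by arterial and sprouting tip cells and restrains further sprouting. Lyve1 encodes a hyaluronan receptor of lymphatic endothelium that is also found on some resident macrophages.

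The arrays differed in more than their endothelial genes. Adipocyte markers had medians of 6.02 and 6.23 on paracardial arrays 1 and 2, close to the medians of all probes on these arrays (6.07 and 6.005), against 8.96 and 9.68 on paracardial arrays 3 and 4 and 14.41 to 16.02 in intra-abdominal fat. On paracardial arrays 1 and 2 the label of fat therefore has little backing from its markers. The 11 measured markers ran from 4.88 to 6.97 on array 1 and from 5.27 to 7.74 on array 2. Plin4, a coat protein of lipid droplets, was among the lowest, at 4.88 and 5.44. Of the 11 measured adipocyte markers 8 were lower and none higher in paracardial fat, and their summed log2 level ran from 66.1 to 110.1 there and from 151.6 to 168.3 in intra-abdominal fat. Thymocyte markers ran the other way, with 3 of 6 higher and summed log2 levels of 68.1 to 85.6 against 35.4 to 60.7, and so did thymic epithelial markers, with 5 of 6 higher and sums of 61.6 to 70.5 against 32.6 to 47.5. Of all genes tested, 2.91% passed as lower and 6.25% as higher. The part of adipocytes and thymic cells in the results below was not tested. Paracardial array 4 and intra-abdominal array 3 also shared a higher ceiling of values (19.93) than the other 5 arrays (19.81 to 19.84). In bulk tissue, fewer endothelial cells and less RNA per cell cannot be told apart.

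Cdh5 was lower in paracardial fat by the largest difference among these 4 genes. Its log2 value was 5.91, 5.88, 7.10 and 8.77 on the 4 paracardial arrays, in the order of their replicate numbers, and 12.86, 13.42 and 15.61 on the 3 intra-abdominal arrays. Every paracardial value was lower than every intra-abdominal one, and the gap of 4.08 between the depots was wider than the range within either depot (2.90 and 2.76). The means were 6.92 ± 1.36 (SD, n = 4) and 13.96 ± 1.46 (SD, n = 3). The difference was -7.05 ± 0.94 (SE), with a 95% interval from -9.28 to -4.81 (limma, adjusted p = 0.0117). It was the 26th lowest of the differences of all 9294 genes. A two-sided exact permutation test over the 35 splits of the arrays gave p = 0.0286, the lowest that groups of 4 and 3 can reach. The 5 arrays of the lower ceiling alone gave a difference of -6.84, and the other pair of arrays alone gave -6.84. Cdh5 was past the threshold whichever single array was left out (adjusted p = 0.016 to 0.0465), but not without paracardial arrays 1 and 2 together (-6.02, adjusted p = 0.105).

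Kdr, the receptor gene, was lower in paracardial fat as well. It was measured at 5.49, 5.44, 6.77 and 7.35 on the paracardial arrays and at 10.19, 10.15 and 12.79 on the intra-abdominal arrays. The depots did not overlap and stood 2.80 apart, and in each depot the array of the higher ceiling was the highest. Mean values were 6.26 ± 0.95 (SD, n = 4) and 11.05 ± 1.51 (SD, n = 3), and the difference was -4.78 ± 0.81 (SE), with an interval from -6.72 to -2.84 (limma, adjusted p = 0.0193; exact permutation p = 0.0286). Within the 5 arrays of the lower ceiling the difference was -4.27, and within the other pair it was -5.44. The call of Kdr ended when array 1 (adjusted p = 0.0643) or array 2 (0.0558) of paracardial fat or array 2 of intra-abdominal fat (0.059) was left out. It also ended when the first pair of paracardial arrays was left out together (-3.98, 0.141).

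Dll4, the Notch ligand, did not pass the test. Its values were 6.08, 6.11, 6.48 and 7.35 in paracardial fat and 6.69, 7.27 and 8.26 in intra-abdominal fat. The depots overlapped, since paracardial array 4 lay above intra-abdominal arrays 1 and 2. Within paracardial fat the summed log2 level of the thymic epithelial markers was also highest on array 4 (70.5). So, among others, were the sums of thymocyte (85.6), macrophage (100.3), adipocyte (110.1) and blood endothelial genes (111.9). Lymphatic, mesothelial and platelet sums were highest on array 3. The part of any of these cell types in the values of Dll4 was not tested. The means were 6.51 ± 0.59 (SD, n = 4) and 7.41 ± 0.79 (SD, n = 3), and the difference was -0.90 with an interval of -2.03 to 0.23 (limma, adjusted p = 0.311; exact permutation p = 0.143). The interval includes 0 and leaves room for a sizeable decrease. Without intra-abdominal array 3 the difference was -0.48, and without paracardial arrays 1 and 2 it was -0.49. In the RefSeq tables a non-coding gene on the opposite strand, Gm14207, overlaps the start of Dll4, and whether the probe separates them is not known.

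Lyve1, the hyaluronan receptor, was lower in paracardial fat. It was measured at 5.58, 5.08, 7.13 and 7.13 on the paracardial arrays and 8.44, 9.83 and 10.30 on the intra-abdominal arrays. The depots did not overlap, but the gap of 1.31 between them was smaller than the range within paracardial fat (2.05) or intra-abdominal fat (1.87). The means were 6.23 ± 1.06 (SD, n = 4) and 9.52 ± 0.97 (SD, n = 3), with a difference of -3.29 ± 0.69 (SE) and an interval from -4.95 to -1.64 (limma, adjusted p = 0.0343; exact permutation p = 0.0286). The difference within the 5 arrays of the lower ceiling was -3.20, with an adjusted p of 0.085 in limma, and within the other pair it was -3.17. Of the 7 fits that left out 1 array, 2 kept the call, those without paracardial array 4 and without intra-abdominal array 1. It ended without paracardial array 1 (adjusted p = 0.0971), 2 (0.0759) or 3 (0.0564), without intra-abdominal array 2 (0.135) or 3 (0.084), and without paracardial arrays 1 and 2 together (-2.39, 0.156).

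**Figure D1:**
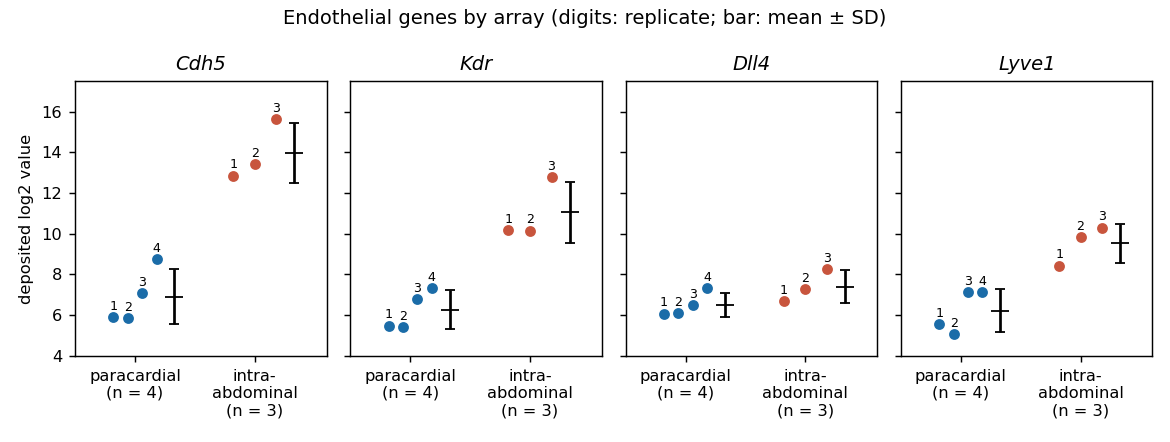
Deposited log2 value of Cdh5, Kdr, Dll4 and Lyve1 (y axis) on each array of paracardial and intra-abdominal fat (x axis); each point is 1 array with its replicate number, and the black bar is the mean ± SD of the depot. Cdh5 values lie between 5.88 and 8.77 in paracardial fat and between 12.86 and 15.61 in intra-abdominal fat, while the Dll4 values of the depots overlap.

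Of the 4 genes, 3 were lower and none was higher, where 2.91% of all genes tested were lower, 6.25% higher and 9.16% either. In 3 of the 4 the depots did not overlap, which held for 26.7% of all genes, and for 8.78% with paracardial fat lower. The 4 genes and the lists below were chosen with earlier results of these data known. Setting such counts beside the shares of all genes is therefore not a test of chance. All 4 genes had their highest value on intra-abdominal array 3 and their lowest on paracardial array 1 or 2.

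The size of the difference varied among the 4 genes. For each of the 6 pairs, the log2 difference between the genes was taken on every array and compared between depots by a two-sided exact permutation test, adjusted over the 6 pairs. The depot difference of Cdh5 was lower than that of each of the others, and the depot difference of Cdh5 minus that of the other gene was -2.26 for Kdr, -3.75 for Lyve1 and -6.14 for Dll4 (exact permutation, adjusted p = 0.0343 for each, from the smallest p of 0.0286 that the arrays allow). The depot difference of Kdr minus that of Dll4 was -3.88 (exact permutation, adjusted p = 0.0343), and that of Dll4 minus that of Lyve1 was 2.39 (exact permutation, adjusted p = 0.0343). The depot difference of Kdr minus that of Lyve1 was -1.49, which did not pass (exact permutation, adjusted p = 0.0571), and on intra-abdominal array 2 the log2 difference between these genes lay within the paracardial range. In paracardial fat 3 of the 4 genes had their lowest values under the median of all probes on the same array, where signal over background is unknown, so a difference from such a level may understate the true one.

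**Figure D2:**
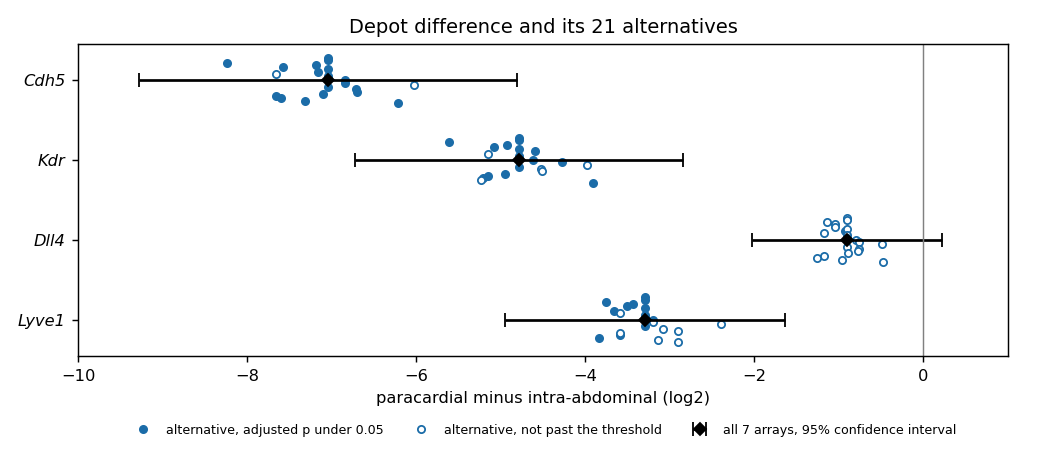
Difference in log2 value, paracardial minus intra-abdominal (x axis), of Cdh5, Kdr, Dll4 and Lyve1; the diamond is the limma estimate over all 7 arrays with its 95% confidence interval, and circles are 21 alternatives (filled where the adjusted p was under 0.05), set apart vertically for legibility. The interval of Cdh5 runs from -9.28 to -4.81 and that of Dll4 from -2.03 to 0.23.

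Promoter windows of Kdr and Dll4, the receptor gene that was lower and the Notch ligand that did not pass, are printed below. They were the 2 of the 4 genes for which a window was available. VEGF signalling and Notch meet in these genes in sprouting vessels. RefSeq windows on GRCm38.p6, 250 bases before to 50 after the annotated start, were matched by symbol for these 2 of the 4 genes. They are written 5′ to 3′ on the strand of the gene, at chr5:75978406-75978705 on the minus strand for Kdr and chr2:119325534-119325833 on the plus strand for Dll4. Capitals mark the core letters GGAAG of ETS factors, a family that includes the endothelial regulators Erg and Fli1, and the GC box GGGCGG, on either strand (CTTCC and CCGCCC where reversed).
Kdr: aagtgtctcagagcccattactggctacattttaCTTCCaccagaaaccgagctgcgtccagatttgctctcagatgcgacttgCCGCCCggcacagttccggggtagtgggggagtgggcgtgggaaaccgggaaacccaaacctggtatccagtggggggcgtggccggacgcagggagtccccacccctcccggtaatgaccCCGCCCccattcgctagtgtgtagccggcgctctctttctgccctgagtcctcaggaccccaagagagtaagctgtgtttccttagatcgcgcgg
Dll4: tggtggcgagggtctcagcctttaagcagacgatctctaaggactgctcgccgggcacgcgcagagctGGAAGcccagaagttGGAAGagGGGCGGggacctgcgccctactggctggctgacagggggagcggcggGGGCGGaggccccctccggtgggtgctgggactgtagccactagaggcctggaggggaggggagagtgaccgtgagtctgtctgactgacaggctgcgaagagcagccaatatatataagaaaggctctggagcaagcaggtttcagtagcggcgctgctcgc
In Kdr the ETS letters begin at -216 and the GC boxes at -166 and -45, all on the reverse strand, counted from the start with -1 as the last base before it. In Dll4 the ETS letters begin at -182 and -167 and the GC boxes at -160 and -113, all on the forward strand. None of these ETS and GC box matches overlaps another. The ETS letters are found in 71.4% and the GC box in 35.7% of all 32851 windows of this length, on either strand. The letters TGGGAA of the Notch effector RBPJ occur once in the window of Kdr, at -128, not in that of Dll4, and in 25.6% of all windows. TATATA, the letters of a TATA box, begins at -3 and again at -1 in Dll4. It is absent from Kdr and present in 5.67% of all windows. AGATAA, the letters of GATA factors, is in neither window and in 11.2% of all. These matches are descriptions of the letters, and their use in fat was not measured.

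Other genes of blood endothelium were mostly lower in paracardial fat, few of them past the threshold. Of 18 measured genes of a list of 36, 3 passed as lower and none as higher, with a median difference of -1.57 against 0.13 for all genes. They were the water channel Aqp1 (-4.66 ± 1.06, difference ± SE, limma adjusted p = 0.0426), the guidance receptor Robo4 of endothelial cells (-1.86 ± 0.30, 0.0178) and the transcription factor Sox18 of vessel and lymphatic development (-1.81 ± 0.38, 0.0341). Robo4 was measured at 4.74, 4.86, 4.93 and 4.84 in paracardial fat and 6.01, 6.97 and 7.13 in intra-abdominal fat, with no overlap. The paracardial values of Robo4 and Sox18 lay below the median of all probes on each array (6.005 to 6.37). Signal over background is unknown there, so their narrow range may reflect a floor, which was not tested. With the dimmest 50% of genes removed, 8 of the 18 genes remained and 1 passed as lower, where 275 of all 4647 remaining genes did. In 12 of the 18 genes the depots did not overlap, all with lower values in paracardial fat, where 8.78% of all genes were lower without overlap and 2.91% passed as lower. Of the 18 differences 17 were below 0. Several had intra-abdominal array 3 well above the other arrays. The junction gene Cldn5, for example, was 6.87, 7.26 and 11.41 in intra-abdominal fat and 5.13 to 6.13 in paracardial fat (difference -3.01, limma adjusted p = 0.145). Fli1, an ETS factor that blood cells also use, had a difference of 0.34 (limma adjusted p = 0.758) with its highest value, 12.09, on paracardial array 4. Pecam1, Tek, Vwf and 15 others of the list were not analysed here.

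Lymphatic genes other than Lyve1 were few. Of a list of 14, 2 were measured and neither passed in limma. Both had an unadjusted p under 0.05, as did 24.4% of all genes tested. Pdpn, a membrane glycoprotein of lymphatic endothelium and several other cell types, differed by -1.30 ± 0.33 (SE, limma adjusted p = 0.0569). Its values were 6.39, 6.70, 7.58 and 6.89 in paracardial fat and 7.88, 8.53 and 8.17 in intra-abdominal fat. Flt4, the VEGF-C receptor, differed by -0.69 ± 0.21 (SE, limma adjusted p = 0.0995). The depots did not overlap in either gene, as in 26.7% of all genes. The lymphatic regulator Prox1 was not analysed here, so whether Lyve1 marks lymphatic vessels in these samples was not tested. Of 3 other measured genes of hyaluronan binding and turnover none passed in limma, and none had an unadjusted p under 0.05. Among them the hyaluronan receptor Cd44 differed by -0.37 (limma adjusted p = 0.495). Of 11 macrophage markers none passed in limma, 3 had an unadjusted p under 0.05, a share close to the 24.4% over all genes, and all 11 differences were below 0, with a median of -1.70. Their summed log2 level was 72.8 to 100.3 in paracardial fat and 88.4 to 118.9 in intra-abdominal fat. Folr2, a folate receptor of resident macrophages, was 6.30, 5.93, 7.34 and 9.05 against 9.09, 9.41 and 13.57 (difference -3.53, limma adjusted p = 0.146).

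Over the blood and lymphatic lists together, 3 of 20 genes were lower, against 2.91% of all genes tested. This count was 0 without paracardial array 1, without paracardial array 2 and without intra-abdominal array 2, 1 without paracardial array 4 and 7 without intra-abdominal array 3. Of all 9294 genes, 62, 83, 71, 204 and 264 were lower in these settings, in the same order, against 270 with all arrays. Leaving out the first pair of paracardial arrays together gave 0, with 1 of all genes lower. The 5 arrays of the lower ceiling alone gave 6, with 316 of all genes lower.

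Among VEGF ligands and receptors other than Kdr, 1 of 3 measured genes of a list of 10 was lower, against 2.91% of all genes tested. It was Vegfd, whose product binds VEGFR3 and drives lymphatic growth, at 5.60, 5.25, 5.84 and 5.29 in paracardial fat and 8.12, 9.26 and 10.28 in intra-abdominal fat. The paracardial values lay close together and below all intra-abdominal values, a difference of -3.72 ± 0.50 (SE, limma adjusted p = 0.0117). They also lay below the median of all probes on each array (6.005 to 6.37), where signal over background is unknown. The call of Vegfd ended in 3 of 21 alternatives (limma adjusted p up to 0.115). One of these left out intra-abdominal array 2 (limma adjusted p = 0.0544). Vegfc, the other lymphatic growth factor, differed by -1.05 (limma adjusted p = 0.094). Of 5 measured genes of VEGF receptor signalling none passed in limma and 3 had an unadjusted p under 0.05, against 24.4% of all genes. They included the endothelial nitric oxide synthase Nos3 (-1.34, limma adjusted p = 0.0937) and the adaptor Sh2d2a, which T cells also use (2.12, limma adjusted p = 0.151).

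The Notch ligand Jag1 differed between the depots where Dll4 did not pass. Jag1, which acts against Dll4 at vessel sprouts, was 6.59, 6.61, 7.02 and 7.18 in paracardial fat and 8.81, 9.64 and 9.92 in intra-abdominal fat. The depots stood clear of each other, and the difference of -2.61 ± 0.32 (SE, limma adjusted p = 0.0106) was past the threshold whichever single array was left out, but not without paracardial arrays 1 and 2 together (adjusted p = 0.105). That Jag1 differs from Dll4 in its change was not tested. Jag1 is not particular to endothelium. The ligand Jag2 (0.33, limma adjusted p = 0.411) and the mural receptor Notch3 (-0.46, limma adjusted p = 0.407) did not pass. Thus 1 of 3 measured ligands and receptors other than Dll4 was lower, against 2.91% of all genes tested. Of 6 measured processing genes and targets none passed in limma and 1 had an unadjusted p under 0.05, against 24.4% of all genes. This was the Notch target Hey1, with 8.05, 7.64, 8.78 and 8.30 in paracardial fat and 6.48, 6.92 and 7.39 in intra-abdominal fat (1.26 ± 0.34, difference ± SE, limma adjusted p = 0.0696). Its values were thus higher in paracardial fat, opposite to those of Jag1.

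Genes of junctions, the layer to which Cdh5 belongs, were lower in 2 of 8 measured cases, against 2.91% of all genes tested. These were the scaffold Tjp1 (-3.24 ± 0.52, difference ± SE, limma adjusted p = 0.0178) and the actin linker Vcl (-3.05 ± 0.58, 0.0255), neither of them restricted to endothelium. Of 6 arterial and tip cell genes 1 was lower, the basement membrane gene Nid2 (-3.81 ± 0.72, limma adjusted p = 0.0255), and 1 was higher, the chemokine receptor Cxcr4 (5.02 ± 1.07, 0.0354). Of 6 venous and adhesion genes 1 was higher, the leukocyte adhesion molecule Vcam1 (3.08 ± 0.68, limma adjusted p = 0.0392). Of all genes tested, 6.25% were higher. Cxcr4 is used by thymocytes and other lymphocytes and Vcam1 by stromal and epithelial cells of the thymus, and the thymocyte and thymic epithelial markers were higher on the same arrays, as given above. Cxcr4 reached 12.43 to 14.74 in paracardial fat and 10.92, 7.34 and 7.52 in intra-abdominal fat, so it was highest on array 1 within the second depot, as was the thymocyte gene Dntt (12.42, 8.32 and 6.37). The part of thymic cells in these values was not tested. None of 3 angiopoietin and Tie genes passed in limma, and 1 had an unadjusted p under 0.05, against 24.4% of all genes. That gene was the receptor Tie1 (-1.81, limma adjusted p = 0.074).

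Most of these calls changed when a single array was left out. Of the 7 fits that left out 1 array, Vegfd passed in 6, Robo4 and Tjp1 in 4, Vcl and Nid2 in 2, Sox18, Cxcr4 and Vcam1 in 1, and Aqp1 in 0. When array 2 of intra-abdominal fat was left out, adjusted p-values were 0.103 for Aqp1, 0.0775 for Robo4, 0.0617 for Sox18, 0.0756 for Nid2, 0.0858 for Vcl, 0.137 for Cxcr4 and 0.137 for Vcam1. Without paracardial array 1 these 7 calls ended too, as did that of Tjp1 (0.0605), and all 8 ended without paracardial array 2. The calls of Aqp1, Sox18, Nid2, Vcl, Cxcr4 and Vcam1 also ended without paracardial array 3 or 4, that of Tjp1 without paracardial array 3, those of Aqp1 and Sox18 without intra-abdominal array 1, and those of Aqp1, Cxcr4 and Vcam1 without intra-abdominal array 3.

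**Figure D3:**
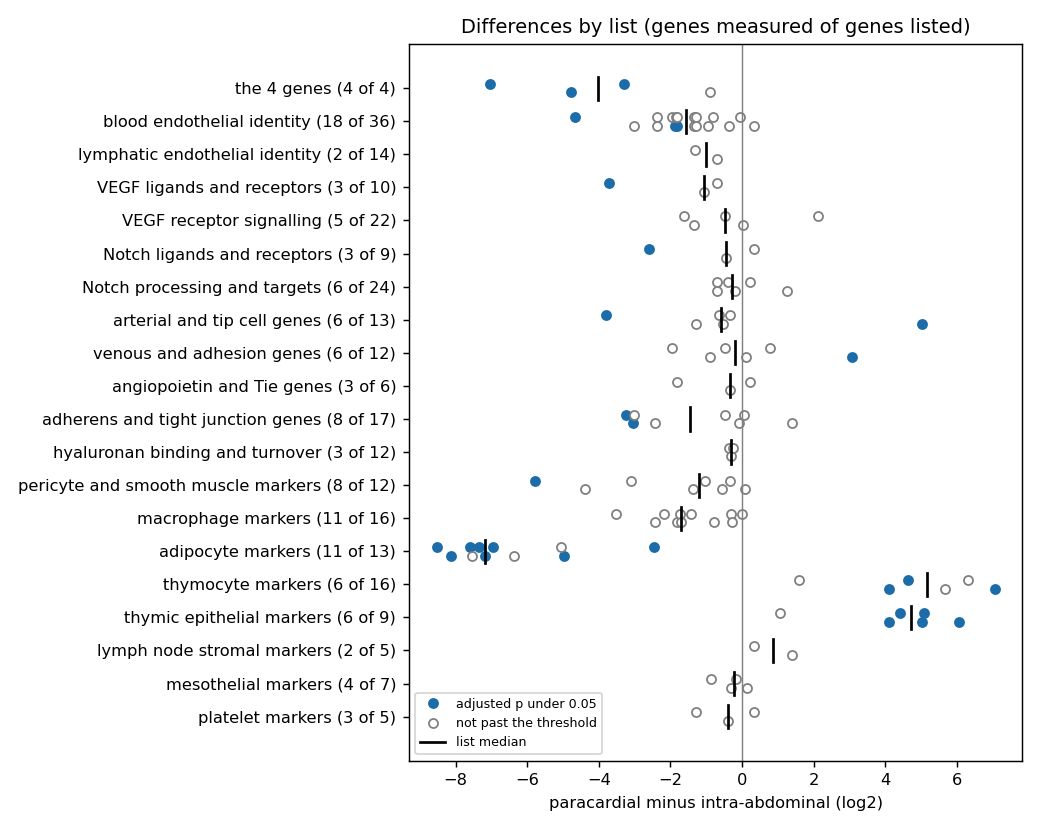
Difference in log2 value, paracardial minus intra-abdominal (x axis), of each measured gene by list (y axis, with the genes measured of those listed); filled circles passed at an adjusted p under 0.05, open circles did not, and the black line is the list median. Blood endothelial genes have a median of -1.57, adipocyte markers -7.19 and thymocyte markers 5.16.

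Mural cells, the pericytes and smooth muscle cells around vessels, were covered by a list of 12 genes. Of 8 measured pericyte and smooth muscle markers 1 was lower, against 2.91% of all genes tested, and 7 did not pass. The median difference of the 8 was -1.19. The gene that passed was Mcam, an adhesion molecule of both mural and endothelial cells. It was measured at 6.18, 5.91, 7.16 and 7.84 in paracardial fat and 11.81, 12.05 and 13.84 in intra-abdominal fat, with no overlap (difference -5.80 ± 0.67, limma adjusted p = 0.00896, past the threshold whichever single array was left out). Without paracardial arrays 1 and 2 together its adjusted p was 0.0954. The smooth muscle actin Acta2 differed by -4.40 (limma adjusted p = 0.0546).

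Mcam was also the gene whose values over the 7 arrays were most like those of Cdh5 among 4944 named genes, with a Pearson r of 0.997. The arrays form 2 depots, so a high r reflects mainly the depot difference, and 209 genes had an r above 0.95 with Cdh5. The next were Tshr, Slc7a8, Fads3 and Cav2 (r = 0.996 each). For Kdr they were Aldh1l1 (0.999), Dock1, Dop1b, Ndrg2 and Adamts5 (0.996 to 0.998), with 279 genes above 0.95. For Lyve1 they were Enpp5 (0.995), Gpat4, Slc39a1, Klf6 and Aebp1, with 174 above 0.95. For Dll4 they were Trappc9 (0.996), Rnf125, Tbl1x, Plcd1 and Ly6c2, with 135 above 0.95, and none of these 5 passed the test between depots. Among the 4 genes, r was 0.991 between Cdh5 and Kdr, 0.963 between Cdh5 and Lyve1 and 0.958 between Kdr and Lyve1, and 0.831 to 0.852 between Dll4 and the others, over the same 7 arrays.

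Set beside other cell types on each array, the 4 genes had medians of 5.75, 5.66, 6.94 and 7.35 in paracardial fat and 9.32, 9.99 and 11.55 in intra-abdominal fat. Adipocyte markers followed the same order of high and low arrays in paracardial fat, apart from arrays 1 and 2, and differed more between depots (median difference -7.19). Among them Lep, the gene of the adipocyte hormone leptin, differed by -8.53. Without paracardial arrays 1 and 2 the median difference was -4.81 for adipocyte markers and -1.55 for the 18 blood endothelial genes. In the same setting Cdh5 differed by -6.02, Kdr by -3.98, Lyve1 by -2.39 and Dll4 by -0.49. The part of adipocyte content in the endothelial differences was not tested. Of 4 mesothelial and 3 platelet markers none passed in limma, and none had an unadjusted p under 0.05. The same held for 2 lymph node stromal markers.

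**Figure D4:**
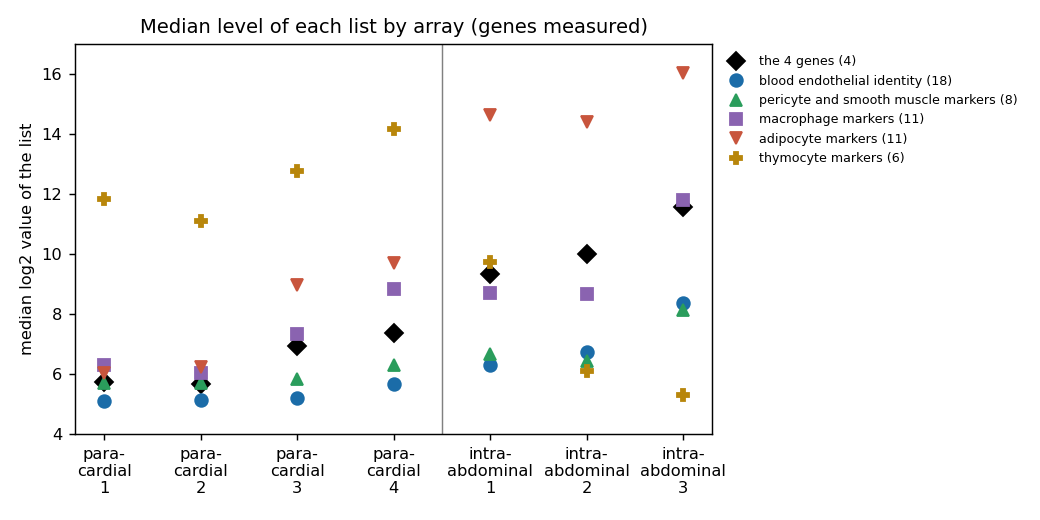
Median log2 value of the genes of each list (y axis) on each of the 7 arrays (x axis); each marker is 1 list, with the number of genes measured. The median of the 4 genes lies between 5.66 and 7.35 in paracardial fat and between 9.32 and 11.55 in intra-abdominal fat, and the thymocyte markers fall from 11.10 or more to 9.74 or less.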

How the data were processed

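Expression was measured on 4 Affymetrix arrays of paracardial and 3 of intra-abdominal fat, grouped by sample title. The authors deposited log2 values per probe. The submitters' processing notes name RMA and Affymetrix Expression Console, without versions. How background was corrected and values centred is not given in the sources used here, and the log2 scale is inferred from the range of the values. Precision is limited by the number of arrays.

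Of 11949 probes 9352 had 1 distinct symbol, 522 several and 2075 none. Entrez identifiers of 5789 probes matched the RefSeq table (GRCm38.p6), which renewed 188 symbols. The highest-mean probe was kept for 52 genes with several, leaving 9294 genes with no filter on dim probes. Differences came from limma 3.58.1 in R 4.3.3 (lmFit, eBayes without trend, no covariate), adjusted by Benjamini-Hochberg over all genes with a threshold of 0.05. The fit was tested on simulated data. Python 3.11.15 did the rest.

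The members and gene lists were chosen with earlier results of these data known. Genes named were the 4 members, up to 4 called members of each pathway or endothelial list by size of difference (up to 2 for other cell types), the largest where none was called, and the 5 genes with the highest r with each member. Likeness left out unnamed models, pseudogenes, receptor segments and small RNAs. Pecam1, Tek, Vwf, Prox1, Gm14207, Fli1, Cldn5, Flt4, Vegfc, Nos3, Jag2, Notch3 and Acta2 were named after their values or absence were seen. No heart muscle marker was analysed here. Alternatives were removal of the dimmest 25% or 50% of genes, 3 normalizations, array weights, robust fitting with trend, a block for replicate number or array set, other probe rules, no genes at the ceiling, and arrays left out.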

Additional observations from a re-analysis of the deposited data

Results flagged for a closer look

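Upk1b, a mesothelial marker named by the rule, had a value of 8.44 on paracardial array 3 against 6.68 to 6.71 on the other 3 paracardial arrays. The gap took up 0.981 of the range of the group, above the critical ratio of 0.829 for 4 samples. Chance gives about 1 such group in 20, and 30 groups were tested, of which 1 stood out. None of the 4 endothelial genes had such an array in paracardial fat, and the groups of 3 intra-abdominal arrays were not tested.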

How the results depend on the processing

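The differences of Cdh5, Kdr, Dll4 and Lyve1 kept their sign in all 21 alternatives, with ranges of -8.24 to -6.02, -5.62 to -3.91, -1.26 to -0.48 and -3.84 to -2.39. With an array left out they ran from -7.67 to -6.22, -5.23 to -3.91, -1.26 to -0.48 and -3.84 to -2.90. The labels number replicates alike in both depots, but same-numbered arrays did not deviate together (r = 0.0479, 0.0474 and -0.50). No array correlated best with its own number. With the replicate block no gene passed in limma (0 calls, 2134 at an unadjusted p under 0.05), the endothelial lists had 0 calls, and Cdh5 (-7.67, adjusted p = 0.0505), Kdr (-5.15, 0.0523) and Lyve1 (-3.59, 0.0639) fell short of the threshold, as did Jag1 (adjusted p = 0.0557) and Mcam (0.0505). Paracardial array 4 has no partner there, so the block drops it. Without paracardial arrays 1 and 2 they were -6.02, -3.98 and -2.39, all short of it, with 1 gene called overall and 0 in the endothelial lists. Within the 5 arrays of the lower ceiling Lyve1 was -3.20 and fell short. With array weights Dll4 passed (-0.92, adjusted p = 0.0494), and Cxcl13, a gene of lymph node stroma, turned from 1.40 to -0.70, neither value past the threshold. The 851 calls over all genes became 2225 with array weights and 1654 with a block for the array set, and ran from 185 to 833 with an array left out. They were 581 higher and 270 lower as deposited, 432 and 416 after quantile normalization again, 573 and 340 after centring on medians and 512 and 530 after cyclic loess. The median difference of all genes was 0.13 as deposited and -0.0052 after centring. The 3 calls in the endothelial lists became 5 with quantile normalization, 7 with cyclic loess, 14 with array weights, 10 with a block for the array set and 6 in the 5 lower-ceiling arrays, and 0 to 7 with an array left out. Fewer arrays allow no exact p under 0.05 for the pairs of genes, so those alternatives give values only. Every pair kept its direction in 12 alternatives, and Kdr against Lyve1 passed after cyclic loess (-1.58, exact permutation, adjusted p = 0.0286). Causes of these changes were not tested. Signal over background is unknown for all values.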
